A study of Mus musculus with 36 samples.

Results

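The 10 genes described here are the glucocorticoid receptor gene Nr3c1, 6 genes widely used as readouts of the activated receptor (Fkbp5, Tsc22d3, Zbtb16, Klf15, Klf9 and Sgk1), the FoxO transcription factor genes Foxo1 and Foxo3, and Pik3r1, which encodes the regulatory subunit of PI3-kinase. They were picked by symbol from the 21156 genes of the table, and the reads of all transcript rows with the same symbol were added together. This choice, like that of the gene lists further on, was made with earlier results of these data known. Counts set beside the shares of all genes are therefore descriptive. RNA came from the soleus, a slow postural muscle of the calf, of 36 male C57BL/6J mice, each library from 1 mouse. The young animals were 6 months of age and the old ones 22 to 24 months, and the labels mention no transgene or deletion. There were 9 young and 9 old controls, 4 young and 6 old mice after 10 days of hind limb unloading, in which the rear of the body is suspended so that the soleus bears no weight, and 4 young and 4 old mice that were reloaded for 3 days after such an unloading period. All groups had free access to chow. The hour of the day at which muscles were taken, which matters for genes under hormonal and clock control, was not given in the sources used here.

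Glucocorticoid hormone enters the cell and binds the receptor, which leaves its chaperones, moves to the nucleus and binds short palindromic response elements near its target genes. In skeletal muscle the same hormone opposes insulin and growth factor signals. When those signals are weak, AKT no longer phosphorylates the FoxO factors, which then enter the nucleus and switch on genes of the ubiquitin-proteasome system and of autophagy. Both arms meet at several of these genes, since KLF15 and FOXO1 are both known in mouse muscle to take part in the hormone's catabolic effects and the PI3-kinase subunit sits at the start of the pathway that restrains FoxO.

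The libraries held 32.0 to 37.9 M reads, 15031 genes had enough reads to be tested, and all 10 genes were among them. Levels are CPM, a gene's reads relative to the library total after TMM scaling, and changes are log2 fold changes ± SE. The word called, like rose and fell, stands for an adjusted p under 0.05 in edgeR's quasi-likelihood test, with Benjamini-Hochberg adjustment over the 15031 genes. The summed level of 8 fibre marker genes ran from 43135 to 77478 CPM. With no other muscle to compare, this sum cannot tell the soleus from another muscle. Alb, the liver gene of serum albumin, was above 20 CPM in 6 libraries: 39.6 in young unloaded mouse 2, 72.5 and 29.8 in young reloaded mice 1 and 2, 36.2 in old unloaded mouse 6, and 1740 and 154 in old reloaded mice 2 and 4. Of 10 liver marker genes, Alb among them, 3 rose in young and 10 in old reloaded mice against controls. Among all genes 26.8% and 21.8% were called higher there. Calls on the 10 genes that change without these 6 libraries are given both ways. Leaving these libraries out also makes the unloaded and reloaded groups smaller. A call lost that way cannot be told apart from one lost through fewer mice. Macrophage markers (8 genes) summed to 77.0 to 155.5 CPM in young controls and 110.5 to 269.6 CPM in young reloaded mice, and to 81.7 to 116.1 and 157.4 to 283.0 CPM in the old mice. None of the 8 was at 0. T cell markers stayed at or below 3.6 CPM in every library.

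Start-site windows from RefSeq (GRCm38.p6, 250 bases before to 50 bases after the start) were used for 8 of the 10 genes, 16 in all. No window of Nr3c1 or Zbtb16 was searched. For Tsc22d3 the window of the short transcript NM_010286, described further on, was not among them and was not searched. Because several of these genes moved together, the windows were searched on both strands for the receptor's element (GNACA and TGTNC with 3 bases between them), the FoxO element (GTAAACA), the E-box (CACGTG), which clock factors among others can bind, and the cAMP element (TGACGTCA). The 4 windows that held a match are shown 5′ to 3′ on the gene's strand, with the matched letters in capitals.
Sgk1: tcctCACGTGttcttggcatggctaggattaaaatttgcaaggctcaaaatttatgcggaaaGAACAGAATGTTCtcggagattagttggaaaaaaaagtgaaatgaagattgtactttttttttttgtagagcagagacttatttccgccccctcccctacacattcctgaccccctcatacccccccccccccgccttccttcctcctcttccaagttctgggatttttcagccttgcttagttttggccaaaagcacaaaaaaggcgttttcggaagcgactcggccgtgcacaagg
Klf9: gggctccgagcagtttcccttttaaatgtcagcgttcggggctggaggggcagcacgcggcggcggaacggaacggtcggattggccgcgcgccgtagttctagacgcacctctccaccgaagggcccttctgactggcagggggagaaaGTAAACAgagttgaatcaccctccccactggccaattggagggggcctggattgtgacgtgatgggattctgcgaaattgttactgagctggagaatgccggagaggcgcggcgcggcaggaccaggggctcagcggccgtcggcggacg
Klf15: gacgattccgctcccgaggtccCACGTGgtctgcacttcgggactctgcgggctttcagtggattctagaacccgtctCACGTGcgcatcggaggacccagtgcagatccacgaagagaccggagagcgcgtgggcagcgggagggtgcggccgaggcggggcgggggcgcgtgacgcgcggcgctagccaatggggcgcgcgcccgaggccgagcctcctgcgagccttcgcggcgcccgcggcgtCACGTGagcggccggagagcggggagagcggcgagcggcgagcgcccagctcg
Fkbp5: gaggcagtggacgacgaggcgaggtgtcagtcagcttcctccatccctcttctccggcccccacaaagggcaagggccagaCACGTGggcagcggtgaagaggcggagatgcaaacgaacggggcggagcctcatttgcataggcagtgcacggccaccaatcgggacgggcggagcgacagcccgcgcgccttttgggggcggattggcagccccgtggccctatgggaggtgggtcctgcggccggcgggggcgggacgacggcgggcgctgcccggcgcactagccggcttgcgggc
The Sgk1 window, chr10:21993640-21993939 on the plus strand, is 1 of 6 for that gene. It begins the transcript NM_001161850 and held the receptor element at position -188 from the start, as well as an E-box at -246. Of all 32851 mouse windows, 0.475% held the receptor element. The Klf9 window, chr19:23140976-23141275 on the plus strand, held the FoxO element at -100, as did 3.65% of all windows. Klf15, chr6:90462326-90462625 on the plus strand, had the E-box 3 times, at -228, -172 and -3, and Fkbp5, chr17:28486100-28486399 on the minus strand, had it once, at -169. E-boxes were found in 7.15% of all windows. The windows of Klf15, Fkbp5 and Sgk1 shown here were 73.3%, 70.7% and 46.3% G and C, against a median of 52.7% over all windows. The shares over all windows are not matched for this content. The cAMP element was in none of the 16 windows and in 1.79% of all windows. A match is a run of letters, not a measured site.

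Measured per transcript length, the 10 genes spanned about an order of magnitude in young controls. Klf9 stood highest at 31.0 ± 1.01 RPKM (reads scaled to transcript length and library size, as deposited; SD, n = 9), followed by Tsc22d3 at 21.8 ± 4.61, Nr3c1 at 19.2 ± 1.82, Sgk1 at 15.9 ± 4.16, Klf15 at 14.5 ± 2.61 and Zbtb16 at 13.3 ± 2.34 RPKM. Pik3r1 came next at 9.58 ± 1.21 RPKM, then Fkbp5 at 4.93 ± 1.15, Foxo3 at 3.90 ± 0.249 and Foxo1 at 2.70 ± 0.555 RPKM. Neighbours in that order overlapped in their RPKM ranges, except for Pik3r1 and Fkbp5, whose lowest and highest libraries were at 7.94 and 7.40 RPKM. In old unloaded mice the order at the top was different, with Tsc22d3 at 48.9 ± 8.03 RPKM above Klf9 at 38.5 ± 4.61 (n = 6), and the ranges of these 2 genes overlapped.

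**Figure D1:**
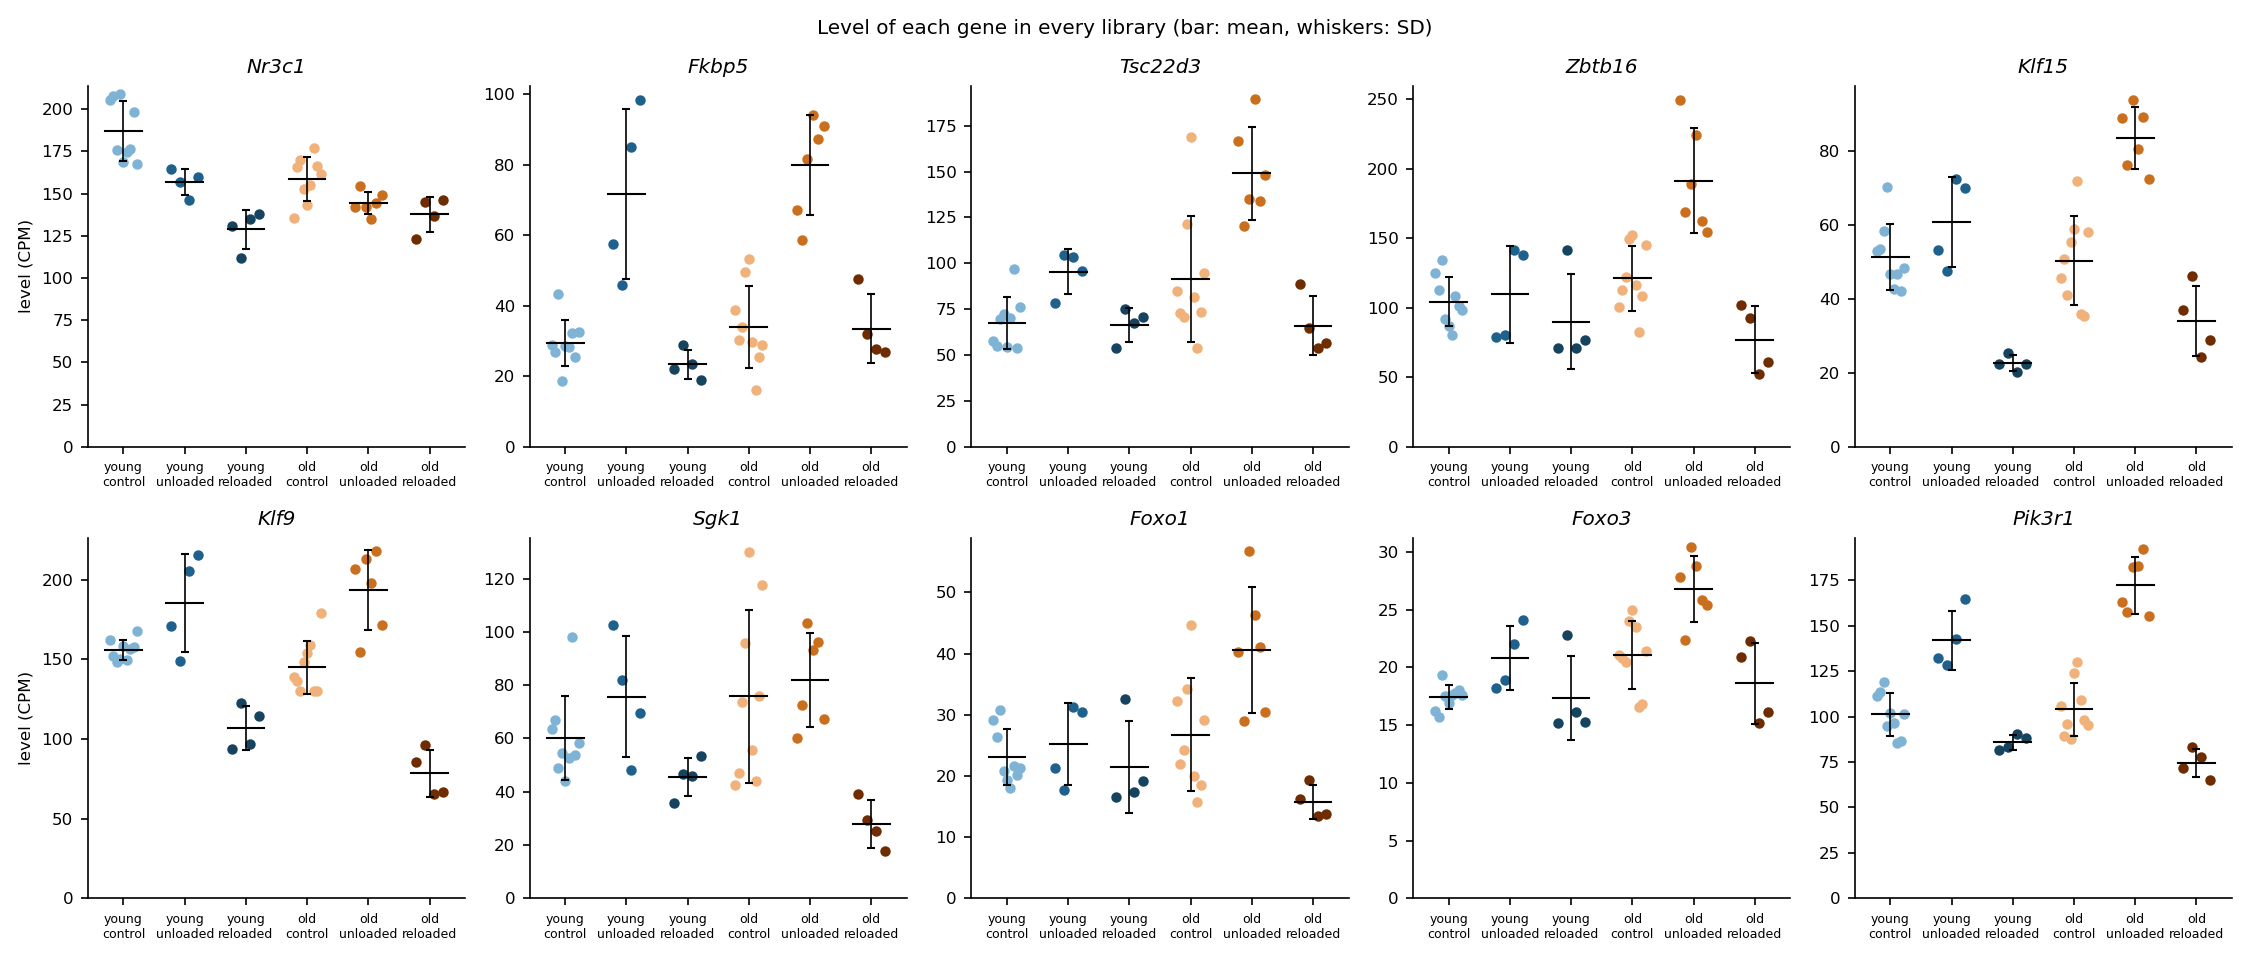
Level of each of the 10 genes in CPM (vertical axis, starting at 0) for every library of the 6 groups (horizontal axis); points are mice, the bar is the mean and the whiskers are the SD. The unloaded group has the highest mean at both ages for every gene except Nr3c1, and every reloaded mouse lies below every control of its age for Klf9.

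After 10 days of unloading the highest group means of 9 of the 10 genes were in unloaded mice at both ages, and Fkbp5 rose most. In young mice Fkbp5, Tsc22d3, Klf9 and Pik3r1 rose and Nr3c1 fell, 4 higher and 1 lower of 10, beside 19.1% of all tested genes called higher and 21.7% called lower. In old mice 8 of 10 rose (Fkbp5, Tsc22d3, Zbtb16, Klf15, Klf9, Foxo1, Foxo3 and Pik3r1) and 0 fell, beside 19.5% higher and 23.2% lower among all genes. The median log2 fold change of the 10 genes was 0.26 in young and 0.63 in old mice, where that of all genes was 0.0 at both ages. Ranges of the 2 groups did not overlap for 2 higher genes in young mice (Fkbp5 and Pik3r1) and 4 in old mice (Fkbp5, Zbtb16, Klf15 and Pik3r1), beside 12.3% and 5.91% of all genes. The difference between the ages in the response was called for 0 of the 10 genes and for 0.0% of all genes by edgeR, with 2 of the 10 and 1487 of all genes at an unadjusted p under 0.05 (DESeq2 also called 0 of the 10). The largest such differences were 0.59 ± 0.26 for Zbtb16 (unadjusted p = 0.0313, adjusted p = 0.4565), 0.48 ± 0.21 for Klf15 (unadjusted p = 0.0285, adjusted p = 0.4463) and 0.48 ± 0.29 for Foxo1 (adjusted p = 0.6184). In bulk tissue, fewer cells of a type and less RNA per cell cannot be told apart. Summed fibre markers were lower after unloading, at 43135 to 48202 CPM against 56397 to 68258 CPM in young controls and at 45808 to 56965 against 55385 to 67977 CPM in old controls (4 of 8 fell and 1 rose at each age). Endothelial markers (7 genes) went from 466.4 to 511.4 CPM in young controls to 403.2 to 440.4 CPM, and from 355.6 to 504.0 CPM in old controls to 314.7 to 363.8 CPM, with 3 of 7 falling at each age and 1 rising in young mice. The part of either list in the unloading results was not tested.

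After 3 days of reloading most of these genes were lower. Against unloaded mice, 6 of 10 fell in young muscle (Nr3c1, Fkbp5, Klf15, Klf9, Sgk1 and Pik3r1) and 9 of 10 in old muscle (all except Nr3c1), beside 21.5% and 23.5% of all genes called lower. The median was -0.62 in young and -1.27 in old mice, against 0.06 and 0.03 over all genes. None of the 10 rose at either age, beside 26.4% and 27.8% of all genes called higher. The reloaded range lay wholly below the unloaded range for 6 genes in young mice (Tsc22d3 in place of Sgk1) and for the 9 called genes in old mice, beside 19.1% and 17.5% of all genes. The unloaded libraries enter both the unloading and the reloading comparison, so a high unloaded group moves both. Macrophage markers moved the other way from these genes: 8 of 8 rose in young and 6 of 8 in old reloaded mice, and their part in the falls was not tested.

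Compared with controls, 4 of 10 genes were lower in young reloaded mice (Nr3c1, Klf15, Klf9 and Pik3r1) and 7 of 10 in old reloaded mice (Nr3c1, Zbtb16, Klf15, Klf9, Sgk1, Foxo1 and Pik3r1). Among all genes 22.9% and 21.1% were called lower and 26.8% and 21.8% higher. The reloaded range lay wholly below the control range for 3 genes at each age, beside 15.2% and 10.9% of all genes. The reloaded libraries also enter the comparison with unloaded mice. Fkbp5 had a value of -0.33 ± 0.23 in young (adjusted p = 0.2294) and -0.02 ± 0.22 in old mice (adjusted p = 0.951), with 95% intervals from -0.80 to 0.13 and from -0.48 to 0.44. Klf15 and Klf9, in contrast, were below controls at both ages.

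**Figure D2:**
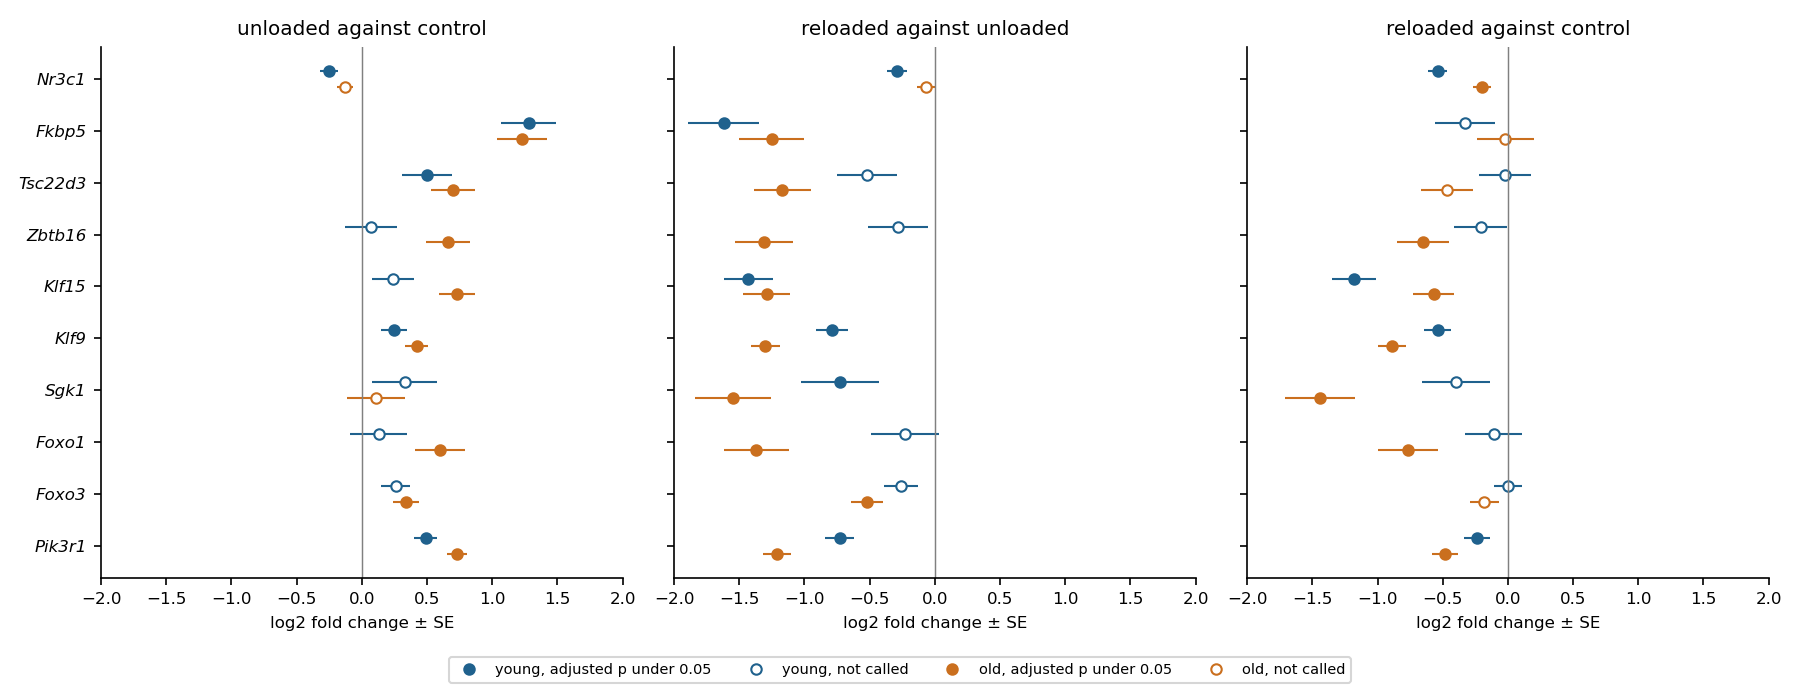
Log2 fold change ± SE (horizontal axis) of each gene (vertical axis) for unloaded against control, reloaded against unloaded, and reloaded against control mice, in young (blue) and old (orange) animals. Filled points have an adjusted p under 0.05; for reloaded against unloaded mice all 20 points lie below 0, and 15 of them are filled.

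Nr3c1 encodes the glucocorticoid receptor itself (chromosome 18). Young controls ran from 167.7 to 208.9 CPM with a median of 176.6, young unloaded mice were at 164.6, 157.0, 146.5 and 160.1 CPM, and young reloaded mice at 130.7, 111.8, 135.0 and 137.7 CPM. These 3 groups did not overlap, and each lay below the one before. Nr3c1 fell by 0.25 ± 0.07 on unloading (adjusted p = 0.003828), by a further 0.29 ± 0.08 on reloading (adjusted p = 0.003936), and was lower by 0.54 ± 0.07 in reloaded mice than in controls (-0.54, adjusted p = 1.2e-07). Without the 6 libraries above 20 CPM of Alb, the step from unloaded to reloaded was -0.22 ± 0.10 (adjusted p = 0.0852). In old mice the receptor began lower, at 135.7 to 176.9 CPM (median 161.9) in controls, and the unloaded mice ran from 135.2 to 154.4 CPM with a median of 143.2. Old reloaded mice were at 123.2, 144.8, 136.6 and 146.1 CPM, inside the range of the old unloaded mice except for mouse 1. Neither the unloading value (-0.13 ± 0.06, adjusted p = 0.07335) nor the reloading value (-0.07 ± 0.07, adjusted p = 0.4453) was called in old mice. Old reloaded mice were lower than old controls by a log2 fold change of -0.20 ± 0.07 (adjusted p = 0.0168), and without reloaded mouse 1 this was -0.16 ± 0.08 (adjusted p = 0.094).

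Fkbp5 encodes the receptor's co-chaperone FKBP51, which the receptor induces and which in turn lowers its hormone binding (chromosome 17, 28398753 to 28486149, minus strand, mm10). Young controls ran from 18.8 to 43.3 CPM (median 28.5), and the unloaded mice were at 57.7, 46.0, 85.1 and 98.3 CPM. After reloading the young mice were at 22.2, 28.9, 23.6 and 18.9 CPM. Every young unloaded mouse was above every control and every reloaded mouse. Fkbp5 rose by 1.28 ± 0.21 (2.43-fold, adjusted p = 9.529e-06) and then fell by 1.62 ± 0.27 (adjusted p = 7.099e-06). Old controls ran from 16.1 to 53.2 CPM (median 30.3) and old unloaded mice from 58.6 to 94.1 CPM (median 84.4). Old reloaded mice were at 47.7, 32.0, 27.7 and 26.8 CPM, so here too the unloaded group stood above the others without overlap. The rise was 1.23 ± 0.19 (2.35-fold, adjusted p = 3.302e-06) and the fall was -1.25 ± 0.25 (adjusted p = 7.737e-05). The unloading response differed between the ages by -0.05 ± 0.29 (adjusted p = 0.9738, 95% interval -0.65 to 0.55).

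Tsc22d3 encodes the glucocorticoid-induced leucine zipper, a mediator of the hormone's anti-inflammatory action (chromosome X, 140539529 to 140600522, minus strand). Its level in young mice was 53.6 to 97.0 CPM (median 69.8) in controls, 78.2, 104.5, 103.3 and 95.9 CPM after unloading, and 53.6, 74.9, 67.4 and 70.5 CPM after reloading. In old mice the controls ran from 53.9 to 169.0 CPM (median 81.6), the unloaded mice from 120.5 to 189.7 CPM (median 141.6), and the reloaded mice were at 88.9, 64.7, 54.1 and 56.6 CPM. Unloaded groups lay above reloaded groups at both ages, and overlapped controls at both ages, in the old animals only through control 5 at 169.0 CPM and control 4 at 121.4 CPM. Tsc22d3 rose by 0.50 ± 0.19 in young mice (adjusted p = 0.03471) and by 0.70 ± 0.17 in old mice (adjusted p = 0.0009856). Reloading gave -0.52 ± 0.23 in young mice (adjusted p = 0.062) and a fall of -1.17 ± 0.22 in old mice (adjusted p = 3.52e-05). The young rise rested on many libraries: it was 0.46 ± 0.22 without the 6 Alb libraries (adjusted p = 0.103), and leaving out unloaded mouse 2, 3 or 4, or control 1, 2, 5 or 8, gave 0.46 to 0.51 with adjusted p from 0.0544 to 0.0933.

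Tsc22d3 has 3 transcript rows. The short transcript NM_010286 starts at position 140543187, far downstream of the long transcript NM_001077364, which starts at 140600522. Its estimated reads ran from 890.2 to 1897.5 in young controls, 1803.4 to 2402.0 in young unloaded, and 812.1 to 1438.2 in young reloaded libraries. In old mice they ran from 1018.5 to 4734.1, from 3347.7 to 5261.4, and from 998.7 to 2109.4. The long transcript stayed between 520.0 and 1004.0 reads in all 36 libraries. In a fit of transcript rows the short transcript rose by 0.69 ± 0.25 on unloading in young mice (adjusted p = 0.0401, beside 27.4% of all 22820 rows called) and by 0.91 ± 0.22 in old mice (adjusted p = 0.00213, beside 29.5%). On reloading it fell by 0.87 ± 0.31 in young (adjusted p = 0.028, beside 32.7%) and by 1.52 ± 0.29 in old mice (adjusted p = 0.000101, beside 35.1%). The long transcript was not called in these 4 comparisons, with values of 0.24 ± 0.15, 0.11 ± 0.13, -0.15 ± 0.17 and -0.31 ± 0.16. The non-coding row NR_122039 rose on unloading in old mice (0.59 ± 0.19, adjusted p = 0.0195) and fell on reloading there (-0.76 ± 0.24, adjusted p = 0.0136), and in young mice it was not called, at 0.09 ± 0.23 and 0.26 ± 0.27. The short transcript's share of the gene's reads was 50.0 to 62.3% in young controls and 61.5 to 66.6% in young unloaded mice. In old mice it was 53.1 to 77.8% in controls and 71.0 to 78.6% after unloading. The control and unloaded ranges thus overlapped at both ages. Reads common to several rows were divided among them by the authors' software, so these shares are estimates, and the difference between the 2 rows was not itself tested.

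**Figure D3:**
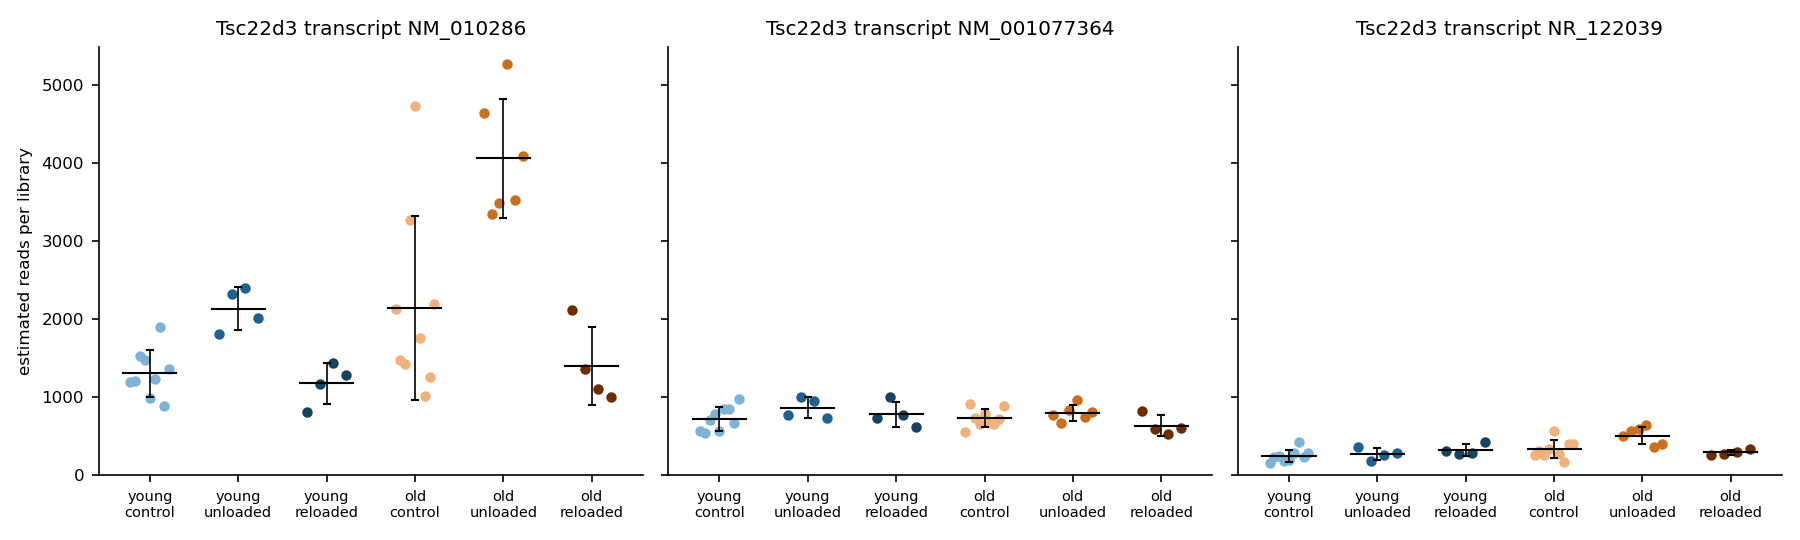
Estimated reads per library (vertical axis) of the 3 transcript rows of Tsc22d3 in the 6 groups (horizontal axis); points are mice, the bar is the mean and the whiskers the SD. Old unloaded mice reach 3347.7 to 5261.4 reads of NM_010286, whereas NM_001077364 stays within 520.0 to 1004.0 reads in every library.

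Zbtb16 encodes PLZF, a zinc finger transcription repressor induced by glucocorticoids in many tissues (chromosome 9, 48654297 to 48835945, minus strand). Zbtb16 in young controls ran from 80.3 to 134.4 CPM (median 101.2), young unloaded mice were at 78.7, 80.1, 141.9 and 138.3 CPM, and young reloaded mice at 71.0, 141.5, 71.3 and 76.8 CPM. The young unloaded mice fell into a low and a high pair on either side of the controls, and reloaded mouse 2 was about as high as the high pair. Unloading gave 0.07 ± 0.20 (adjusted p = 0.8073) and reloading -0.28 ± 0.23 (adjusted p = 0.3276). Without reloaded mouse 2 the reloading value was -0.60 ± 0.23 (adjusted p = 0.0296), and without the 6 Alb libraries -0.71 ± 0.27 (adjusted p = 0.0359). In old mice the controls ran from 82.9 to 152.2 CPM (median 116.6), the unloaded mice from 154.8 to 249.7 CPM (median 178.9), and the reloaded mice were at 102.0, 92.7, 52.1 and 61.3 CPM. Every old unloaded mouse was above every old control and reloaded mouse. Zbtb16 rose by 0.66 ± 0.17 (adjusted p = 0.001915) and fell by 1.31 ± 0.22 (adjusted p = 7.876e-06) in the old mice. Old reloaded mice were also below controls (-0.65 ± 0.20, adjusted p = 0.009147), a call that ended without reloaded mouse 3 (-0.51 ± 0.22, adjusted p = 0.0645).

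Klf15 encodes a Krüppel-like factor that drives amino acid breakdown in muscle (chromosome 6, 90462626 to 90475209, plus strand). Young controls ran from 42.1 to 70.3 CPM (median 48.4), unloaded mice were at 53.2, 47.6, 72.5 and 69.9 CPM, and reloaded mice at 22.3, 25.4, 20.2 and 22.4 CPM. The reloaded young mice were tightly grouped and lay below every young control. Klf15 had a value of 0.24 ± 0.16 on unloading (adjusted p = 0.2237), fell by 1.43 ± 0.19 on reloading (adjusted p = 2.237e-07) and was at -1.18 ± 0.17 against controls (0.44-fold, adjusted p = 6.456e-07). Old controls ran from 35.5 to 72.0 CPM (median 50.8) and old unloaded mice from 72.4 to 93.9 CPM (median 84.7), just clear of each other. Old reloaded mice were at 36.9, 46.1, 24.3 and 28.8 CPM, partly within the old controls. The old rise was 0.73 ± 0.14 (adjusted p = 5.552e-05), the fall -1.29 ± 0.18 (adjusted p = 2.856e-07), and the value against controls -0.57 ± 0.16 (adjusted p = 0.005333). Reloaded old mice were thus above reloaded young mice (0.59 ± 0.19, adjusted p = 0.02726), except that the call was lost without young reloaded mouse 3 (0.55 ± 0.21), old reloaded mouse 1 (0.55 ± 0.21), old reloaded mouse 2 (0.41 ± 0.19, adjusted p = 0.145) or the 6 Alb libraries (0.52 ± 0.26, adjusted p = 0.248), and with only the groups compared (adjusted p = 0.0995).

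Klf9 encodes a related Krüppel-like factor induced by both glucocorticoid and thyroid hormone (chromosome 19, 23141226 to 23166911, plus strand). Its young controls were tightly grouped at 148.7 to 167.7 CPM (median 156.7), with unloaded mice at 171.3, 148.8, 205.6 and 215.6 CPM and reloaded mice at 93.9, 122.6, 97.2 and 114.6 CPM. Of the unloaded mice, 3 were above every young control, and all reloaded mice were below. Klf9 rose by 0.25 ± 0.10 on unloading (adjusted p = 0.04772), a call lost when any of young controls 1 to 8 or unloaded mouse 3 or 4 was left out, the last giving 0.17 ± 0.11 (adjusted p = 0.239). On reloading it fell by 0.79 ± 0.12 (adjusted p = 1.928e-06), and reloaded mice were at -0.54 ± 0.10 against controls (adjusted p = 5.81e-05). Old controls ran from 129.9 to 179.1 CPM (median 139.0), old unloaded mice from 154.5 to 217.8 CPM (median 202.4), and old reloaded mice were at 85.3, 96.2, 65.2 and 66.9 CPM. Old reloaded mice lay below all other old mice. The rise was 0.42 ± 0.09 (adjusted p = 0.0002713), the fall -1.30 ± 0.11 (adjusted p = 4.401e-11) and the value against controls -0.89 ± 0.11 (adjusted p = 4.484e-08). Reloaded old mice were lower than reloaded young mice (-0.45 ± 0.12, adjusted p = 0.009077), where Klf15 had been higher, and this call was lost with only the groups compared (adjusted p = 0.108). The age difference in the reloading response was -0.51 ± 0.16 (unadjusted p = 0.00349, adjusted p = 0.1116), and without old reloaded mouse 2 its adjusted p was 0.0486.

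Sgk1 encodes a kinase related to AKT that glucocorticoids induce and that can phosphorylate FOXO3 (chromosome 10, 21882184 to 21999902, plus strand). Sgk1 in young controls ran from 44.0 to 98.2 CPM (median 54.7), unloaded mice were at 102.5, 82.0, 48.2 and 69.7 CPM, and reloaded mice at 35.9, 46.8, 45.8 and 53.4 CPM. Unlike the other readouts, its high unloaded mice were 1 and 2. Unloading gave 0.33 ± 0.25 (adjusted p = 0.3002). The fall on reloading was -0.73 ± 0.30 (adjusted p = 0.04086), and leaving out unloaded mouse 1 or 2, or reloaded mouse 1, 2 or 3, ended the call with values from -0.57 to -0.77, as did leaving out the 6 Alb libraries (-0.59 ± 0.40, adjusted p = 0.252). Old controls were widely spread, from 42.6 to 129.8 CPM (median 73.7), with unloaded mice at 60.0 to 103.2 CPM (median 82.8) and reloaded mice at 39.3, 29.4, 25.1 and 17.8 CPM. All old reloaded mice were below all other old mice. Sgk1 had a value of 0.11 ± 0.22 on unloading (adjusted p = 0.7059), fell by 1.55 ± 0.29 on reloading (adjusted p = 3.146e-05) and was at 0.37-fold of old controls afterwards (-1.44 ± 0.27, adjusted p = 5.753e-05). In young mice the same comparison gave -0.40 ± 0.26 (adjusted p = 0.1938), and the difference between the ages was -1.04 ± 0.36 (unadjusted p = 0.00678, adjusted p = 0.07917).

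Of the 6 transcript rows of Sgk1, NM_011361, which starts at 21994666, took 57.4 to 78.0% of the gene's reads, and NM_001161848 took 8.6 to 30.0%. NM_011361 fell on reloading in old mice (-1.67 ± 0.31, adjusted p = 7.05e-05) and had a value of -0.80 ± 0.33 in young mice (adjusted p = 0.0564). The row whose start window held the receptor element, NM_001161850, accounted for 2.7 to 11.4% of the reads. It had values of 0.25 ± 0.28 and 0.02 ± 0.25 on unloading in young and old mice (adjusted p = 0.573 and 0.957) and on reloading it had a value of -0.04 ± 0.34 in young mice (adjusted p = 0.942) and fell in old mice (-1.20 ± 0.32, adjusted p = 0.00327). A minor row, NM_001161847, went from 35.5 to 51.4 estimated reads in young unloaded libraries to 3.4 to 5.8 in young reloaded ones, and from 5.2 to 85.2 to 1.1 to 4.3 in the old mice. The reads of this row are few, and its fall passed the test at both ages (-3.11 ± 0.80, adjusted p = 0.00256, and -4.06 ± 0.83, adjusted p = 0.000211).

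Foxo1 encodes the FoxO factor whose excess causes muscle wasting in mice (chromosome 3, 52268337 to 52350109, plus strand). Foxo1 in young controls ran from 18.0 to 30.8 CPM (median 21.3), unloaded mice were at 21.3, 17.7, 31.2 and 30.5 CPM, and reloaded mice at 16.6, 32.6, 17.4 and 19.1 CPM. As with Zbtb16, unloaded mice 3 and 4 and reloaded mouse 2 were the high ones, and the groups overlapped. The young values were 0.13 ± 0.22 on unloading (adjusted p = 0.6825) and -0.23 ± 0.26 on reloading (adjusted p = 0.4829). Old controls ran from 15.8 to 44.7 CPM (median 24.2), old unloaded mice from 29.0 to 56.8 CPM (median 40.7), and old reloaded mice were at 16.3, 19.4, 13.4 and 13.8 CPM. Every old reloaded mouse was below every old unloaded mouse. Foxo1 rose by 0.60 ± 0.19 (adjusted p = 0.009808), fell by 1.37 ± 0.25 (adjusted p = 2.289e-05) and ended below old controls (-0.77 ± 0.23, adjusted p = 0.006941). The reloading response differed between the ages by -1.13 ± 0.35 (unadjusted p = 0.00294, adjusted p = 0.1023).

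Foxo3 encodes the FoxO factor best known for inducing autophagy and ubiquitin ligase genes in mouse muscle (chromosome 10, 42185786 to 42276742, minus strand). Young controls were closely grouped at 15.7 to 19.3 CPM (median 17.6), with unloaded mice at 18.2, 18.9, 22.0 and 24.1 CPM and reloaded mice at 15.2, 22.8, 16.1 and 15.3 CPM. Young unloading gave 0.26 ± 0.11 (adjusted p = 0.05996), just outside the threshold. Foxo3 was called there under 7 of 21 alternatives, with DESeq2 (adjusted p = 0.048), the groups compared alone (adjusted p = 0.00623), the 5 CPM filter (adjusted p = 0.0363), and without control 3, unloaded mouse 1 or 2, or the 6 Alb libraries (0.31 ± 0.11, adjusted p = 0.0243), and the adjusted p over all 21 ran from 0.00623 to 0.251. Young reloading gave -0.26 ± 0.13 (adjusted p = 0.1006), and this was called without reloaded mouse 2 (-0.44 ± 0.13, adjusted p = 0.00532), unloaded mouse 1 (-0.34 ± 0.14, adjusted p = 0.0488) or the 6 Alb libraries (-0.47 ± 0.15, adjusted p = 0.0147). Old controls ran from 16.6 to 25.0 CPM (median 21.1), unloaded mice from 22.4 to 30.4 CPM (median 26.8), and reloaded mice were at 20.9, 22.3, 15.2 and 16.1 CPM. The old unloaded group sat just above the reloaded group and overlapped the controls. Foxo3 rose by 0.34 ± 0.10 (adjusted p = 0.003907) and fell by 0.52 ± 0.12 (adjusted p = 0.0004802), and old reloaded mice were at -0.18 ± 0.11 against controls (adjusted p = 0.2038).

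Pik3r1 encodes p85 alpha, the regulatory subunit of PI3-kinase, whose excess over the catalytic subunit is known to dampen insulin signalling in mice (chromosome 13, 101680761 to 101768217, minus strand). Pik3r1 in young controls ran from 85.7 to 119.0 CPM (median 101.6), unloaded mice were at 132.1, 128.3, 142.9 and 164.6 CPM, and reloaded mice at 81.8, 83.0, 90.3 and 88.4 CPM. Old controls ran from 87.9 to 129.8 CPM (median 98.1), unloaded mice from 155.3 to 192.2 CPM (median 172.6), and reloaded mice were at 71.6, 83.0, 77.8 and 64.9 CPM. Unloaded mice stood above all other mice of their age, and old reloaded mice below all other old mice. Pik3r1 rose by 0.49 ± 0.09 in young (adjusted p = 6.467e-05) and by 0.73 ± 0.08 in old mice (1.66-fold, adjusted p = 1.24e-08), then fell by 0.73 ± 0.11 (adjusted p = 2.154e-06) and by 1.21 ± 0.11 (adjusted p = 3.534e-11). Against controls, reloaded old mice were lower (-0.48 ± 0.10, adjusted p = 0.0001192). In young mice the value was -0.24 ± 0.10 (adjusted p = 0.03863), a call that ended without the 6 Alb libraries (-0.19 ± 0.12, adjusted p = 0.231), control 1, 2 or 3, or reloaded mouse 1 or 2 (adjusted p from 0.0633 to 0.0866). The longer transcript NM_001077495 took 91.5 to 97.4% of the reads of the gene.

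Age by itself was tested within each condition. Fibroblast markers (5 genes) summed to 645.1 to 969.9 CPM in young controls and 381.7 to 592.7 CPM in old controls, 5 of 5 being lower in old mice, and their part in the age results was not tested. Between the control groups Nr3c1 was lower in old mice (-0.24 ± 0.05, adjusted p = 0.001611), and Tsc22d3 (0.44 ± 0.15, adjusted p = 0.0351) and Foxo3 (0.28 ± 0.09, adjusted p = 0.01818) were higher, 3 of 10 beside 23.7% of all genes called. All 3 pairs of ranges overlapped. The Tsc22d3 call was lost without old control 5, the mouse at 169.0 CPM (0.28 ± 0.13, adjusted p = 0.14), and also without old control 4 or young control 1, 2, 5 or 8. Among unloaded mice Zbtb16 (0.80 ± 0.22, adjusted p = 0.01485), Tsc22d3 (0.64 ± 0.21, adjusted p = 0.04999) and Foxo3 (0.37 ± 0.12, adjusted p = 0.04556) were higher in old animals, 3 of 10 beside 9.81% of all genes. Ranges did not overlap for Zbtb16 or Tsc22d3 there. The Zbtb16 call ended without young unloaded mouse 1 or 2 (0.67 ± 0.23 each), the low pair. For Tsc22d3 and Foxo3 the calls ended without young unloaded mouse 1, 2 or 3, without old unloaded mouse 1, 3, 4 or 6, and without the 6 Alb libraries (0.68 ± 0.26, adjusted p = 0.112, and 0.33 ± 0.12, adjusted p = 0.096), and that of Tsc22d3 also without young unloaded mouse 4. Among reloaded mice Klf15 was higher and Klf9 lower in old animals, as given above, 2 of 10 beside 19.7% of all genes.

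Differences between the ages in a response were called for 1 gene. The reloaded-against-control value of Nr3c1 was -0.54 ± 0.07 in young and -0.20 ± 0.07 in old mice, a difference of 0.33 ± 0.10 (adjusted p = 0.04042), beside 4.82% of all genes called. Without the 6 Alb libraries the difference was 0.17 ± 0.12 (adjusted p = 0.566). The call was also lost without young control 1, 2, 4 or 8, young reloaded mouse 2 (0.28 ± 0.10, adjusted p = 0.117), old control 1, 4 or 6, or old reloaded mouse 2, 3 or 4. In the response to reloading, 0 of the 10 genes were called by edgeR beside 0.778% of all genes, although 5 of the 10, and 2484 of all 15031 genes, had an unadjusted p under 0.05: Tsc22d3 (-0.65 ± 0.31), Zbtb16 (-1.03 ± 0.32), Klf9, Foxo1 and Pik3r1 (-0.49 ± 0.15). All 5 had the larger fall in old mice, and DESeq2 called Zbtb16 (adjusted p = 0.0485).

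**Figure D4:**
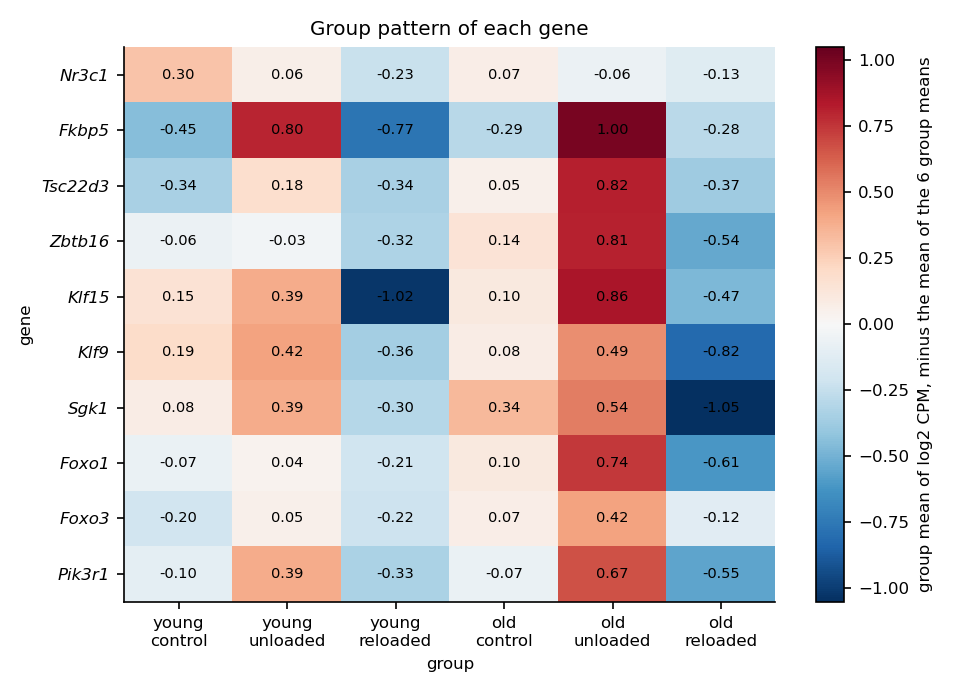
Group means of log2 CPM for each gene (rows), each minus the mean of that gene's 6 group means; columns are the 6 groups and the colour scale and printed values are in log2 units. Old unloaded mice have the highest value of every gene except Nr3c1, with Fkbp5 at 1.00 and Klf15 at 0.86, and the lowest values are Sgk1 in old reloaded (-1.05) and Klf15 in young reloaded mice (-1.02).

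To place the 10 patterns among the rest of the muscle's genes, the 6 centred group means of log2 CPM were compared with those of the 9252 genes averaging 5 CPM or more, by root mean square difference. Zbtb16 and Foxo1 were each other's nearest gene, at 0.07 log2 units, and Zfp36, an mRNA decay factor gene, followed for both at 0.07 and 0.09. Sgk1 lay nearest to Map2k6, a kinase gene of the p38 pathway (0.14), then to Klf9 (0.15), while Klf9 itself had Dcaf4 (0.10) and Zfp46 (0.11) nearest. Klf15 had Ctsl, the gene of the lysosomal protease cathepsin L (0.08), and Hook1 (0.15). Nr3c1 had Igip and Mto1 (0.04 each), Tsc22d3 had the insulin-degrading enzyme gene Ide (0.09) and the deacetylase gene Hdac4 (0.10), Foxo3 had Ank3 and Taf1d (0.04 each), and Pik3r1 had Fibin (0.07) and Zfp956 (0.09). Fkbp5 had Slc8a3, a sodium-calcium exchanger gene (0.13), and the cold-inducible RNA-binding protein gene Cirbp (0.18). A flat gene has near neighbours more easily than one with large swings, and 6 group means that share the same libraries are few points, so these distances are descriptive.

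Within groups the same mice tended to be high for several genes. Among young unloaded mice, 3 and 4 were above 1 and 2 for Fkbp5, Zbtb16, Klf15, Klf9, Foxo1, Foxo3 and Pik3r1, and below them for Sgk1. Young reloaded mouse 2 was the highest of its group for 7 of 10 genes, and mouse 1 the lowest for 7. Old control 5 was the highest for 6 genes (Fkbp5, Tsc22d3, Zbtb16, Sgk1, Foxo1 and Foxo3), and old control 7 the lowest for 5. Old reloaded mouse 2, which had the 1740 CPM of Alb, was the highest for 5 genes (Klf15, Klf9, Foxo1, Foxo3 and Pik3r1). What these mice had in common was not tested.

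The receptor's chaperones and cofactors were counted next. Of 16 tested genes of that list, 8 rose and 3 fell on unloading in young mice and 6 rose and 4 fell in old mice, beside 19.1% and 19.5% of all genes called higher and 21.7% and 23.2% called lower, so the number that fell was near the background. The medians were 0.17 and 0.18 against 0.0 for all genes. Nr3c2, the mineralocorticoid receptor gene, rose by 0.59 ± 0.08 in young mice (adjusted p = 2.88e-07), while Hspa8, a heat shock chaperone gene, fell by 1.03 ± 0.12 in young and 0.78 ± 0.11 in old mice (adjusted p = 5.4e-08 and 3.77e-07). On reloading 3 rose and 6 fell in young mice and 3 rose and 7 fell in old mice, beside 26.4% and 27.8% of all genes called higher and 21.5% and 23.5% lower. The co-chaperone gene Stip1 rose by 1.16 at both ages (SE 0.13 and 0.11; adjusted p = 4e-09 and 3.76e-10), and Ncor1, a corepressor gene, fell by 0.44 ± 0.05 and 0.45 ± 0.05 (adjusted p = 2.26e-08 and 2.7e-09).

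Of the other genes known to be induced by glucocorticoids, most were not called on unloading, and those called mostly rose. Of 19 tested, 6 rose, 1 fell and 12 were not called on unloading in young mice, with a median of 0.29. In old mice 8 rose, 1 fell and 10 were not called, with a median of 0.55. Among all genes 19.1% and 19.5% were called higher and 21.7% and 23.2% lower. On reloading 1 rose and 6 fell in young mice and 0 rose and 13 fell in old mice, with medians of -0.32 and -0.82. Beside these, 26.4% and 27.8% of all genes were called higher and 21.5% and 23.5% lower. Ddit4, a stress-induced inhibitor of mTORC1, rose by 1.67 ± 0.24 in old unloaded mice (adjusted p = 1.17e-06), from 10.1 ± 5.16 CPM in controls to 32.0 ± 8.93 CPM. The sestrin gene Sesn1, on this list and on the FoxO list, rose there by 0.84 ± 0.11 (adjusted p = 2.94e-07), and Hif3a by 1.94 ± 0.29 (adjusted p = 2.42e-06) at levels of up to 3.90 CPM. Both Ddit4 (1.69 ± 0.32, adjusted p = 0.000803) and Hif3a (1.62 ± 0.38, adjusted p = 0.00571) were higher in old than in young unloaded mice. In that comparison 7 of the 19 genes were higher and 0 lower, beside 9.81% of all genes called, with a median of 0.60. Between the control groups 7 of the 19 were also higher in old mice and 3 lower, beside 23.7% of all genes, with a median of 0.39. The clock gene Per1, also a receptor target, rose on unloading in young mice (1.47 ± 0.24, adjusted p = 7.71e-06) and was higher in old than in young controls (1.25 ± 0.20, adjusted p = 3.18e-05). After reloading Per1 stayed above controls in young mice (1.67 ± 0.24, adjusted p = 5.54e-07) and was at -0.12 ± 0.25 in old mice, a difference of -1.79 ± 0.35 (adjusted p = 0.00538).

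Among target genes of the FoxO factors more rose than fell on unloading, and most fell on reloading. Of 25 tested, 10 rose and 5 fell in young unloaded mice and 10 rose and 6 fell in old ones. The medians were 0.26 and 0.18. Among all genes 19.1% and 19.5% were called higher and 21.7% and 23.2% lower, so the number that fell was near the background. Fbxo32, the ubiquitin ligase gene also called atrogin-1, rose by 0.54 ± 0.15 in young mice (adjusted p = 0.00321). The mitophagy kinase gene Pink1 rose by 0.66 ± 0.07 and 0.46 ± 0.07 at the 2 ages (adjusted p = 1.34e-08 and 8.14e-07), whereas Sod2, the mitochondrial superoxide dismutase gene, fell by 0.65 ± 0.10 and 0.58 ± 0.08 (adjusted p = 1.93e-06 and 9.09e-07). On reloading 1 rose and 17 fell in young mice and 2 rose and 18 fell in old mice, with medians of -0.69 and -0.79, beside 21.5% and 23.5% of all genes called lower. Fbxo32 fell from 911.9 ± 236.0 to 197.8 ± 19.9 CPM in young mice (-2.20 ± 0.18, adjusted p = 1.7e-11) and from 923.9 ± 167.5 to 214.5 ± 48.6 CPM in old mice (-2.11 ± 0.17, adjusted p = 1.38e-11). Beside 22.9% and 21.1% of all genes called lower, 16 fell against controls in young reloaded mice and 18 in old ones. Against controls 0 rose in young and 1 in old reloaded mice, beside 26.8% and 21.8% of all genes. The autophagy gene Map1lc3b fell by 1.00 ± 0.09 and 0.76 ± 0.09 there (adjusted p = 1.11e-10 and 4.82e-08). The reloading response of Fbxo32 differed between the ages by 0.10 ± 0.24 (adjusted p = 0.886). Trim63, the ubiquitin ligase gene also called MuRF1, had values of -0.25 ± 0.23 and 0.14 ± 0.20 on unloading (adjusted p = 0.414 and 0.589) and fell by 1.53 ± 0.27 and 1.57 ± 0.26 on reloading (adjusted p = 2.08e-05 and 5.49e-06). Fbxo32, Trim63, Pdk4 and Sesn1 stand on both this list and the glucocorticoid list, so the counts of these lists are not separate.

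**Figure D5:**
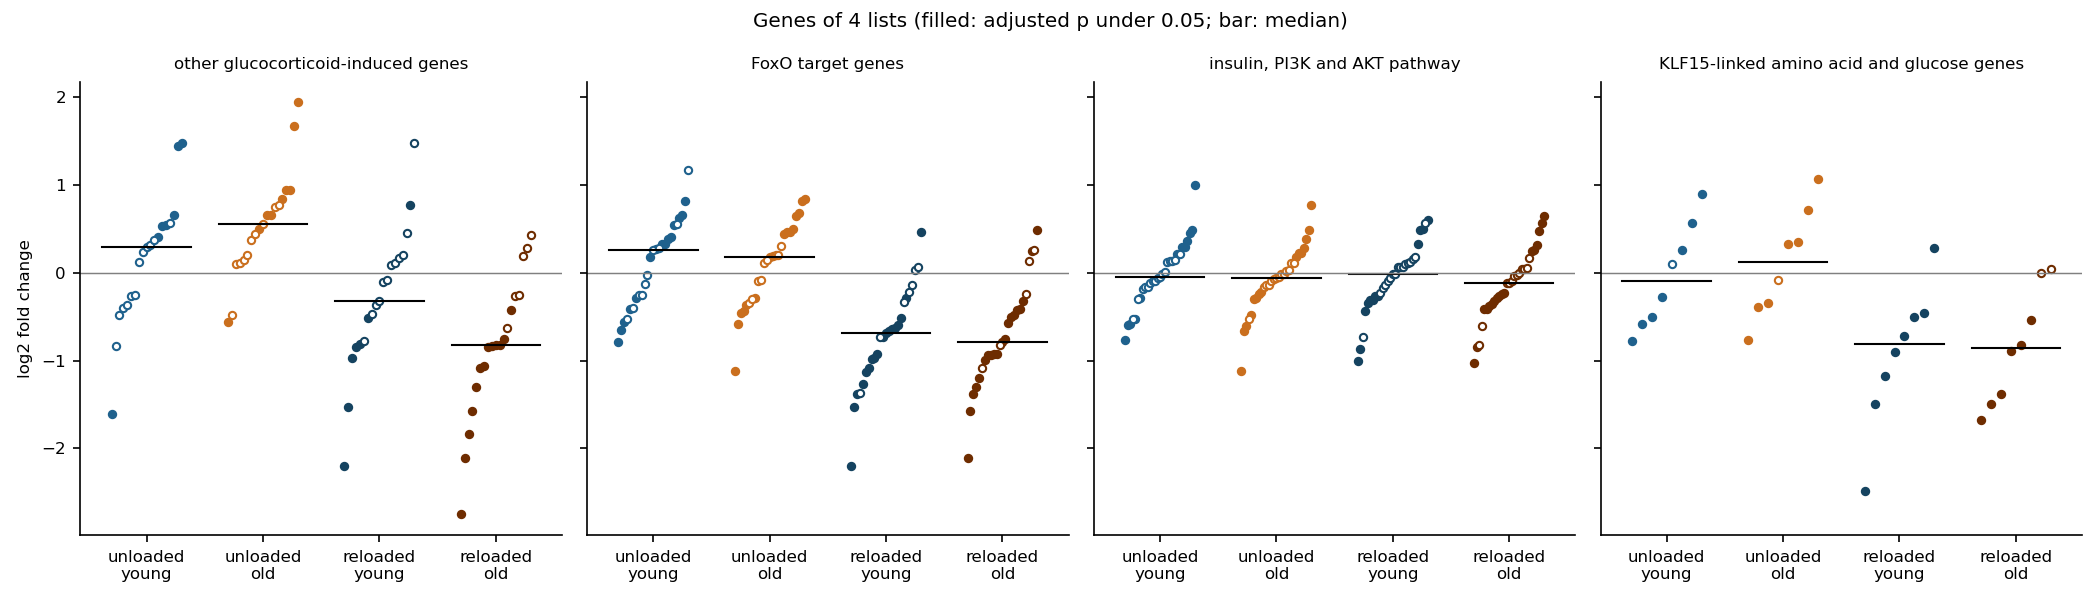
Log2 fold change (vertical axis) of the genes of 4 lists for unloaded against control and reloaded against unloaded mice at each age (horizontal axis); filled points have an adjusted p under 0.05 and the bar is the median. The FoxO target list has medians of -0.69 and -0.79 on reloading. The medians of the insulin, PI3-kinase and AKT list lie between -0.12 and -0.02.

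On unloading, genes of the insulin, PI3-kinase and AKT pathway were called about as often as genes at large. Of 29 tested genes 7 rose and 5 fell in young unloaded mice and 7 rose and 8 fell in old ones, with medians of -0.05 and -0.06, beside 19.1% and 19.5% of all genes called higher and 21.7% and 23.2% called lower. Set beside the rise of Pik3r1, the catalytic subunit gene Pik3ca fell by 0.58 ± 0.09 in young (adjusted p = 5.64e-06) and by 0.61 ± 0.08 in old mice (adjusted p = 2.45e-07). The balance between regulatory and catalytic subunits was not tested. Nedd4l, the gene of a ubiquitin ligase that SGK1 phosphorylates, rose by 1.00 ± 0.12 and 0.77 ± 0.11 on unloading (adjusted p = 3.94e-08 and 5.84e-07) and fell by 1.00 ± 0.15 and 1.03 ± 0.14 on reloading (adjusted p = 1.17e-06 and 1.76e-07). Its level was 21.0 ± 3.99 CPM in young controls, 42.1 ± 0.76 CPM after unloading and 21.2 ± 3.68 CPM after reloading. Foxo4, another FoxO gene, was not called on unloading (0.21 ± 0.10 and 0.11 ± 0.09) and fell on reloading by 0.87 ± 0.12 and 0.85 ± 0.11 (adjusted p = 4.65e-07 and 1.53e-07). Of the 29 genes, 4 rose and 8 fell on reloading in young mice and 6 rose and 11 fell in old mice. Among all genes 26.4% and 27.8% were called higher and 21.5% and 23.5% lower. Against controls 5 rose and 11 fell in young and 2 rose and 11 fell in old reloaded mice. The shares of all genes there were 26.8% and 21.8% higher and 22.9% and 21.1% lower. Between the control groups 8 were higher and 4 lower in old mice, beside 23.7% of all genes called.

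Genes of amino acid and glucose use that are linked to KLF15 split on unloading and were mostly lower after reloading. Of 8 tested, 3 rose and 4 fell in young unloaded mice and 4 rose and 3 fell in old ones. The shares of all genes were 19.1% and 19.5% called higher and 21.7% and 23.2% called lower. On reloading 1 rose and 7 fell in young and 0 rose and 6 fell in old mice. Beside these, 26.4% and 27.8% of all genes were called higher and 21.5% and 23.5% lower. Against controls 8 of 8 and 7 of 8 were lower, beside 22.9% and 21.1% of all genes, with medians of -1.01 and -0.69. Bckdha, a subunit gene of the branched-chain keto acid dehydrogenase, fell by 1.49 ± 0.11 and 1.38 ± 0.11 on reloading (adjusted p = 2.27e-12 and 2.89e-12). The branched-chain aminotransferase gene Bcat2 was at -1.23 ± 0.10 against controls at both ages (adjusted p = 1.65e-11 and 5.43e-11). Gpt2, the mitochondrial alanine aminotransferase gene, fell on reloading from 98.2 ± 18.3 to 17.5 ± 1.42 CPM in young mice (-2.48 ± 0.29, adjusted p = 1.29e-08).

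Relatives of the readout genes were counted as well. Among 12 other Krüppel-like factor genes tested, 2 rose and 0 fell in young and 2 rose and 3 fell in old unloaded mice, the old counts being near the 19.5% and 23.2% of all genes called higher and lower. Klf6 rose by 0.74 ± 0.17 in the young animals (adjusted p = 0.0006). Klf5 was above controls in young reloaded mice (1.10 ± 0.19, adjusted p = 1.4e-05), and its response differed between the ages by -1.22 ± 0.28 (adjusted p = 0.0144), at levels of up to 3.43 CPM. Of 15 other genes of the FKBP and TSC22 families, 0 rose and 5 fell in young and 1 rose and 7 fell in old unloaded mice. The shares of all genes called on unloading were 19.1% and 19.5% higher and 21.7% and 23.2% lower. On reloading 8 of the 15 rose and 3 fell in young mice, beside 26.4% and 21.5% of all genes. In old mice 4 rose and 3 fell on reloading, near the 27.8% and 23.5% of all genes called higher and lower. Fkbp14, the gene of a collagen-folding isomerase, fell by 0.38 ± 0.10 in young and by 0.48 ± 0.09 in old mice on unloading (adjusted p = 0.00323 and 4.44e-05) and rose by 0.96 ± 0.12 and 0.95 ± 0.10 on reloading (adjusted p = 3.58e-08 and 5.02e-09).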

How the data were processed

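The deposited table lists 31668 transcripts, and each of the 36 libraries has its reads and its RPKM there. Per the file headers, RPKM values were made by the authors, scaled to transcript length and library size. The deposited reads are estimated counts (expected counts) that the authors made: where transcripts of a gene overlap, the authors' software split the reads between them, so that 55.68% of transcript values but 94.94% of gene sums lay within 0.01 of a whole number. Tools named in the submitters' processing notes are TopHat2 (version 2.0.1), TopHat, Partek (version 6.6) and DESeq, with mm10 as the genome, and their roles and order are not stated. Use of strand in counting was not given in the sources used here, so reads from an overlapping antisense gene cannot be told apart. Symbols that a spreadsheet had turned into dates (56 rows) were restored.

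Reads were summed per gene over its rows (RPKM likewise) and rounded. Genes were filtered with filterByExpr, scaled with TMM (factors 0.939 to 1.088) and fitted with edgeR 4.0.16 (glmQLFit, glmQLFTest; R 4.3.3, limma 3.58.1), with 1 coefficient for each of 6 groups, 30 residual degrees of freedom and a common biological coefficient of variation of 0.149. The SE of an edgeR log2 fold change is its size divided by the square root of the test's F statistic. Intervals of 95% combine this SE with the t distribution on the 30 residual degrees of freedom. They can therefore differ slightly from the test's p-values. There were 12 comparisons, 3 of them age differences in a response, adjusted with Benjamini-Hochberg over 15031 genes each. The labels give no batch. CPM ranges "do not overlap" when every library of a group lies above every library of the other. Each library is from a separately numbered mouse. Totals were 32.0 to 37.9 M reads per library. Counting error was not taken apart from the spread between mice, and it weighs more for genes with few reads such as Foxo3. In a simulation of unloading in young mice (14927 genes), 69 of 100 genes changed 1.5-fold and 99 of 100 changed 2-fold were recovered, with 6 false calls. All other genes were left unchanged there, whereas in the data 19.1% of genes were called higher and 21.7% lower. The recovery therefore does not give the power or the error of the real test. The 105 within-group pairs of libraries differed beyond sampling noise (chi-square per degree of freedom 8.47 to 92.03), so none was counted as a duplicate.

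The 10 genes, the pathway lists and the marker lists were chosen with earlier results of these data known. From each pathway list up to 3 genes with the smallest adjusted p per comparison could be named, and for each of the 10 genes the 2 genes nearest in group pattern, leaving out predicted genes. A few other values of such listed genes are given beside those, chosen after their values were seen. Alternatives were DESeq2 1.42.0, RLE scaling, no filter, a filter of 5 CPM in 4 libraries, the groups compared alone, a block for mouse number, the highest transcript row, and each library left out. Leaving out the 6 libraries above 20 CPM of Alb, and the fit of transcript rows, were added after seeing the data.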

Additional observations from a re-analysis of the deposited data

Results flagged for a closer look

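Among 60 sets of 1 gene in 1 group, those of 4 to 10 mice were checked for a mouse far from the rest of its group, and 4 were found, where chance alone gives about 1 in 20. Young reloaded mouse 2 stood apart from its 3 group mates for 3 genes: Zbtb16 at 141.5 CPM (the others 71.0 to 76.8), Foxo1 at 32.6 CPM (16.6 to 19.1) and Foxo3 at 22.8 CPM (15.2 to 16.1). It was also 1 of the 6 libraries above 20 CPM of Alb, at 29.8 CPM. Over all genes, its chi-square per degree of freedom against young reloaded mice 1, 3 and 4 was 92.03, 81.05 and 77.97. Between those 3 mice the value ran from 17.3 to 18.79, so mouse 2 stood apart for genes in general. Young control 7 stood apart for Sgk1, at 98.2 CPM where the other young controls ran from 44.0 to 66.9 CPM.

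The effect of reloading against control on Nr3c1 differed between the ages, with a log2 difference of 0.33 ± 0.10 (old minus young; edgeR adjusted p = 0.04042). All 4 young reloaded mice were below all young controls, whereas the old groups overlapped. The call held under 19 of 34 alternatives, and without the 6 Alb libraries the difference was 0.17 ± 0.12 (edgeR adjusted p = 0.566). Old against young, the controls differed by -0.24 ± 0.05 (adjusted p = 0.001611) and the reloaded mice by 0.10 ± 0.08 (adjusted p = 0.4371).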

How the results depend on the processing

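Over 2760 values of the 10 genes under the alternatives, 2631 kept their direction and side of the threshold, 92 called values lost the call, 37 gained one and 0 reversed. The count of called genes stayed within 1.5 times for both reloading comparisons and both reloaded-against-control comparisons, and for unloading in old mice. It moved beyond that as follows. Old against young unloaded mice (3 called): 1 without a filter, 1 with the highest transcript row, 6 with only the groups compared, and 1 without the 6 Alb libraries. Old against young reloaded mice (2 called): 0 with only the groups compared and 1 without the Alb libraries. Age difference in reloading (0 called): 1 with DESeq2. Age difference in reloaded against control (1 called): 0 without a filter, with the replicate block, with only the groups compared, and without the Alb libraries. The cause was not tested. With each library left out in turn the counts ran from 3 to 6 for unloading in young mice (3 without young control 1, 2, 5 or 8 or young unloaded mouse 3 or 4) and 8 to 9 in old mice, 5 to 7 and 9 to 9 for reloading, 3 to 4 and 6 to 8 for reloaded against control, 2 to 3, 0 to 4 and 1 to 2 for age in control, unloaded and reloaded mice, and 0 to 0, 0 to 1 and 0 to 2 for the age differences. In the young reloading comparison leaving out the Alb libraries kept the count at 6 but not the genes: Nr3c1 and Sgk1 were lost, Zbtb16 and Foxo3 gained.

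The mouse numbers do not pair libraries: of 69 same-numbered pairs across groups 15 had a correlation over 0.1 (range -0.42 to 0.44, median 0.01), and 5 libraries matched their own number best. With the replicate block the counts were 4 and 8 for unloading in young and old mice, 5 and 9 for reloading, 4 and 7 for reloaded against control, 2, 2 and 2 for age in control, unloaded and reloaded mice, and 0 for each age difference.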
